A study of Mus musculus with 55 samples.

Results

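Enzymes that write and erase DNA methylation and members of the histone deacetylase family, named for taking acetyl groups off histones, were followed in the ventral dentate gyrus. These were the 9 genes Dnmt1, Dnmt3a, Tet1, Tet2, Tet3, Hdac1, Hdac2, Hdac4 and Hdac5. They were chosen by name out of the 45318 gene identifiers of the count tables. All 9 were detected in each of the 54 mice and all 9 passed the filter on low counts, which kept 18283 genes. RNA had been sequenced from single male C57BL/6J mice that were not pooled and that had been placed after weaning in standard housing (SH) or in an enriched environment (EE), which gave larger groups of mice tunnels, objects and running wheels. Part of the mice of each housing then underwent chronic social defeat stress (CSDS), repeated exposure to an aggressive CD1 male, and were classified by a social interaction test as resilient (RES) or susceptible (SUS). The others were unstressed controls. In SH there were 10 controls, 7 RES mice and 10 SUS mice, and in EE there were 9 of each. RES and SUS are classes cut from a behavioral ratio in mice that all met the same stress, and the tissue is a dissected region that holds many cell types.

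DNA methyltransferases add a methyl group to cytosine. Dnmt1 copies the methylation pattern onto newly made strands, and Dnmt3a sets new methylation and is the main such enzyme of the mature brain. The TET dioxygenases Tet1, Tet2 and Tet3 oxidize methylcytosine to hydroxymethylcytosine, a mark that is abundant in neurons, and so open a route to demethylation. The class I deacetylases Hdac1 and Hdac2 are paralogs that work in the nucleus as the catalytic subunits of the Sin3, NuRD and CoREST corepressor complexes. The class IIa deacetylases Hdac4 and Hdac5 move between nucleus and cytoplasm with neuronal activity and repress MEF2 target genes when they are in the nucleus.

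Sequence decides how well reads of Hdac1 can be told from those of other genes, so its sequence is given first, beside that of the pseudogene that shares most with it and that of its paralog Hdac2. Hdac1 lies on the minus strand at chr4:129516104-129542713 (GRCm38), Hdac2 on the plus strand at chr10:36974544-37001889, and Gm10093, a processed pseudogene of Hdac1 without introns, on the plus strand at chr17:78491582-78493025. The 90 coding bases shown run from base 899 to base 988 of the Hdac1 coding sequence and from base 902 to base 991 of that of Hdac2, counted from the start codon, and were read from the GENCODE M21 transcripts. Capitals mark bases that differ from Hdac1.
Hdac1: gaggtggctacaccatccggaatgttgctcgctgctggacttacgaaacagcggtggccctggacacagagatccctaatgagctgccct
Gm10093: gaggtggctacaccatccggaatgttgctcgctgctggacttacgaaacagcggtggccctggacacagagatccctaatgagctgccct
Hdac2: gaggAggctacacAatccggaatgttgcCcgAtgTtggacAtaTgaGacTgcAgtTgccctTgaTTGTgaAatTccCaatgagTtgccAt

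In this stretch the pseudogene had 0 differences from Hdac1, whereas Hdac2 had 21. Over the 1444 bases that could be aligned, Gm10093 was identical to the Hdac1 coding sequence at 99.4% of positions, with a longest run of 450 bases without a difference. The coding sequences of Hdac1 and Hdac2 were identical at 75.4% of bases, but their longest shared run was 17 bases. Of the 50-base windows along the transcripts of Hdac1, 31.7% also occur in Gm10093, 4.84% in AC125456.1 and 4.41% in Gm4864, which are processed pseudogenes too, and 35.5% in any other gene, so read pairs that lie wholly there align to more than 1 place, and such pairs are not counted for any gene in tables of this layout. For Hdac2 this share was 0%, for Dnmt1, Dnmt3a, Tet1, Tet2, Tet3 and Hdac5 it was at most 0.761%, and for Hdac4 it was 21.6%, all of it with Gm26720 on the opposite strand, which the strand-specific counts keep apart. The level of Hdac1 is therefore uncertain, since part of its length is counted poorly. The read pairs lost in each mouse were not measured, so whether the loss was alike between groups was not tested.

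The 55 libraries held between 32223034 and 49990637 read pairs, of which 16760009 to 24426804 were counted for genes on the sense strand, and the EE control mouse with 2 libraries was counted as 1 mouse after its counts were summed. All 8 markers of dentate granule cells were present in every mouse, from a lowest value of 13.7 CPM (counts scaled to a common library size) for Tdo2. Tissue from next to the dentate gyrus was present in some mice: the 8 tested choroid plexus markers summed to a median of 22.9 CPM in SH and 21.7 CPM in EE mice but reached 988 CPM in 1 SH control mouse and 542.5 CPM in 1 EE SUS mouse, and 8 thalamic markers ranged from 100.5 to 699.8 CPM.

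Read per kilobase of exon, the scale on which genes can be compared, Hdac2 was the most abundant of the 9 genes at 21.9 ± 1.11 CPM per kb (SD, n = 54). Hdac5 followed at 10.8 ± 0.751 and Dnmt1 at 9.99 ± 0.614 CPM per kb, and the values of these 2 genes overlapped across mice. Hdac1 had 7.60 ± 0.707 CPM per kb, and its highest mouse at 8.77 lay below the lowest Dnmt1 value of 8.79. Of the windows along the Hdac1 transcripts, 35.5% also occur in other genes, and read pairs lying wholly there are not counted. The full exon length was still used, so the Hdac1 value may be too low. Its place below Dnmt1 and Hdac5 is therefore not settled. Dnmt3a at 3.93 ± 0.306, Hdac4 at 3.55 ± 0.347 and Tet2 at 3.14 ± 0.226 CPM per kb formed a middle group in which neighbours overlapped. Tet3 at 1.56 ± 0.175 and Tet1 at 1.46 ± 0.104 CPM per kb were lowest and overlapped as well. Hdac2 stood at percentile 88.5 of the tested genes on this scale and Tet1 at percentile 31.4. These levels use the summed length of all annotated exons, so a gene with long exons that are seldom used appears lower than it is.

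**Figure D1:**
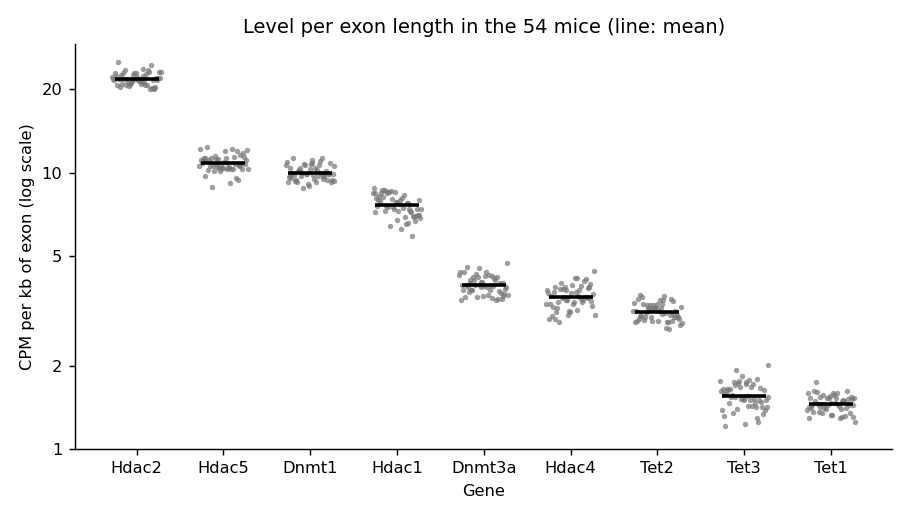
Level of the 9 genes in CPM per kilobase of exon on a log axis, with 1 point for each of the 54 mice and a line at the mean. Hdac2 lies above all others at 21.9 CPM per kb, and Tet3 and Tet1 lie lowest at 1.56 and 1.46 CPM per kb.

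The main question was whether housing, defeat or behavioral phenotype went along with a different level of these enzymes. A gene was taken to have risen or fallen when the quasi-likelihood test of edgeR, fitted on all 18283 genes and the 6 groups, gave an adjusted p below 0.05. Of the 9 genes only Hdac1 did so. It was lower in mice raised in EE, while the other 8 genes passed in none of the 14 comparisons.

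Hdac1 had 27.6 ± 1.98 CPM (SD, n = 27) in mice raised in SH and 24.8 ± 1.98 CPM (SD, n = 27) in mice raised in EE. In SH, controls ranged from 24.9 to 30.2 CPM with a median of 28.1, RES mice from 24.9 to 29.9 with a median of 29.0, and SUS mice from 22.0 to 29.6 with a median of 27.0 (n = 10, 7 and 10). In EE, controls ranged from 21.5 to 28.6 CPM with a median of 25.6, RES mice from 20.3 to 26.7 with a median of 24.8, and SUS mice from 23.0 to 27.4 with a median of 24.3 (n = 9 each). The 2 housings overlapped, but 26 of 27 EE mice were below the SH median and 11 of 27 SH mice were above the highest EE mouse. Across all phenotypes Hdac1 fell by 0.16 on the log2 scale in EE (SE 0.03, adjusted p = 0.00207, edgeR), a difference of -10.6% with a 95% interval from -14.3% to -6.70%. The p-value and the interval treat cage mates as independent, and differences between cages cannot be told apart from those between housings. In this comparison 2.42% of all tested genes passed, 161 higher and 281 lower in EE, and 1 of the 9 genes did. At an unadjusted p below 0.05 the background was 17.6% of genes and the count was 2 of 9, the other being Hdac4.

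**Figure D2:**
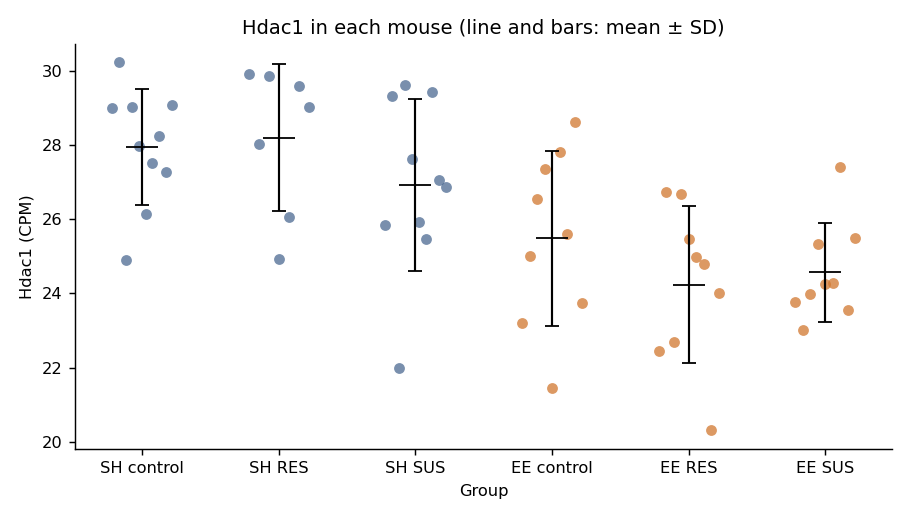
Hdac1 in CPM for each mouse of the 6 groups, with the mean and SD of each group as a line and bars. The EE groups have means from 24.2 to 25.5 CPM and the SH groups from 26.9 to 28.2 CPM, with overlapping ranges.

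Within each phenotype the Hdac1 difference between housings had the same sign, without reaching the adjusted threshold. It was -0.13 (SE 0.05, adjusted p = 0.860) on the log2 scale between control mice, -0.22 (SE 0.06, adjusted p = 0.0602) between RES mice and -0.13 (SE 0.05, adjusted p = 0.549) between SUS mice, with unadjusted p of 0.0109, 0.000241 and 0.0132 in edgeR. The difference between RES mice passed with DESeq2 at an adjusted p of 0.0251 and did not pass with limma-voom at 0.0591. With scores of granule, CA1 and CA3 cells as covariates it was smaller, at -0.12 (SE 0.04, adjusted p = 0.390), and with glial and endothelial scores it was -0.14 (SE 0.05, adjusted p = 0.388). Between control mice the difference was -0.13 (SE 0.04, unadjusted p = 0.00179, adjusted p = 0.437, edgeR) with the granule, CA1 and CA3 scores. With the glial and endothelial scores it was -0.14 (SE 0.04, unadjusted p = 0.00138, adjusted p = 0.450). The difference between SUS mice was -0.10 (SE 0.04, unadjusted p = 0.00812, adjusted p = 0.428) with the granule, CA1 and CA3 scores. It was -0.07 (SE 0.05, unadjusted p = 0.130) with the glial and endothelial scores, the only 1 of 68 alternatives in which its unadjusted p was not below 0.05. Neither the difference between defeated and control mice (interaction -0.04, SE 0.06, unadjusted p = 0.520) nor that between SUS and RES mice (interaction 0.09, SE 0.08, unadjusted p = 0.250) was shown to depend on housing. The test for any difference among the 6 groups gave an adjusted p of 0.0421 for Hdac1 with edgeR, where 0.35% of all genes passed and, unadjusted, 11.1%, against 1 of the 9 genes in both. This call was held by a narrow margin, since 22 of the 54 fits that left out 1 mouse lost it, with an adjusted p of up to 0.0771 without SH RES mouse 6.

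Some cell type markers differed between housings, and some marker scores were correlated with Hdac1. Of the 8 granule cell markers, 2 were lower in EE (Tdo2 and Dsp) and none higher, while 2.42% of all tested genes passed. The 8 markers had a median log2 difference of -0.13, beside 0.0043 for all genes. By phenotype this median was 0.0089 between control mice, -0.32 between RES mice and -0.08 between SUS mice. At an unadjusted p below 0.05 (edgeR) the counts were 0, 5 and 1 of 8, beside 5.02%, 16% and 7.36% of all genes. Summed, they ranged from 573.5 to 1022 CPM with a median of 859 in SH mice and from 505 to 1078 CPM with a median of 774 in EE mice. The 8 oligodendrocyte markers had a median log2 difference of 0.25, Mbp, the gene of a major myelin protein, was among those higher in EE, and the list summed to a median of 1343 CPM in SH (1027 to 2493) and 1648 CPM in EE (1054 to 2291). Of the 6 endothelial markers, Flt1, a receptor for vascular growth factor, was higher, with medians of 149.7 and 159.6 CPM for the list. No marker of these lists was at 0 in every mouse of a housing.

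Over the 54 mice, log2 CPM of Hdac1 rose with the granule cell marker score, the mean z-score of the 8 markers (Pearson r = 0.74, Spearman rho = 0.66, both permutation p = 1e-05, the smallest that 100000 resamples can give, and adjusted p = 0.00049 over 99 relations of genes with marker lists). Without the 2 mice of most distant score r was 0.67, and it was 0.75 among SH mice and 0.74 among EE mice. With the oligodendrocyte score the relation was inverse, at r = -0.65 and rho = -0.63 (permutation p = 1e-05, adjusted p = 0.00049), at -0.61 without 2 mice, -0.55 within SH and -0.64 within EE. With scores of granule, CA1 and CA3 cells as covariates, the EE difference of Hdac1 was -0.12 (SE 0.02, adjusted p = 0.00443, edgeR) on the log2 scale. With scores of oligodendrocytes, astrocytes, microglia and endothelial cells it was also -0.12 (SE 0.03) but missed the threshold at an adjusted p of 0.0548, in a fit in which 40 genes passed in place of 442. With scores of choroid plexus and thalamus it was -0.15 (SE 0.03, adjusted p = 0.000945), and without the 6 mice whose choroid plexus markers exceeded 100 CPM, 3 of each housing, it was -0.17 (SE 0.03, adjusted p = 0.000891). In bulk tissue, fewer cells of a type and less RNA per cell cannot be told apart.

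**Figure D3:**
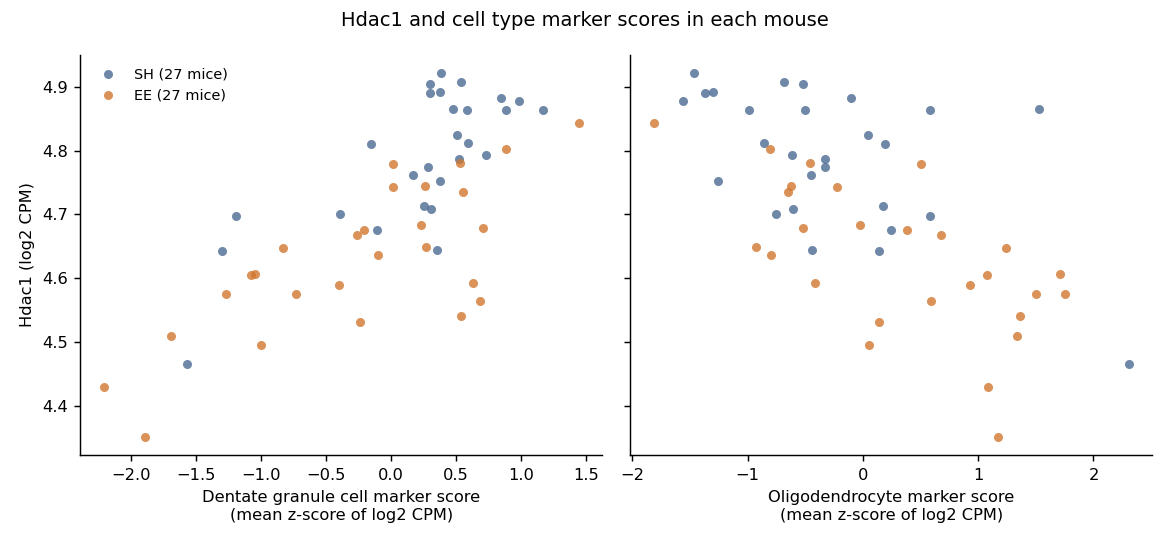
Hdac1 in log2 CPM against the granule cell marker score (left) and the oligodendrocyte marker score (right), each a mean z-score of log2 CPM, with 1 point for each of 27 SH and 27 EE mice. Hdac1 is higher in mice with a higher granule cell score (r = 0.74) and lower in mice with a higher oligodendrocyte score (r = -0.65).

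The pseudogene Gm10093 did not pass between housings. It had 0.779 ± 0.238 CPM (SD, n = 27) in SH and 0.796 ± 0.238 CPM (SD, n = 27) in EE mice, with a log2 difference of 0.04 (SE 0.12, adjusted p = 0.913, edgeR). Its counts summed to 7 to 33 read pairs per mouse, against 420 to 1073 for Hdac1. When the counts of both were added, the EE difference was -0.16 on the log2 scale with an adjusted p of 0.00214. Read pairs that align to both genes are counted for neither, so this sum does not recover them and cannot show their effect.

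Hdac2, the paralog of Hdac1, had no call between housings. It ranged from 91.5 to 112.3 CPM with a median of 97.5 in SH mice and from 89.7 to 109.7 CPM with a median of 96.9 in EE mice, and the housings overlapped almost completely. The log2 difference between EE and SH was -0.0094 with a 95% interval from -0.05 to 0.03 (unadjusted p = 0.658, edgeR), which leaves out the value of -0.16 seen for Hdac1. Hdac2 was also the steadiest of the 9 genes, with a coefficient of variation of 5.09% over the mice.

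Hdac4 and Hdac5, the class IIa deacetylases, lie at chr1:91928779-92195699 and chr11:102194432-102230166, both on the minus strand. Hdac4 was the gene with the second largest difference between housings, in the direction opposite to Hdac1. In SH mice it ranged from 45.4 to 63.0 CPM with a median of 54.5 and in EE mice from 48.3 to 69.8 CPM with a median of 57.5. The ranges overlapped widely, although 20 of 27 EE mice were above the SH median. The log2 difference was 0.11 (SE 0.04, unadjusted p = 0.00492, adjusted p = 0.0977, edgeR), which did not pass. It was 0.15 (SE 0.07, unadjusted p = 0.0291) between EE RES and SH RES mice, with 58.5 ± 4.19 (SD, n = 9) and 52.7 ± 6.58 CPM (SD, n = 7), and 0.07 (SE 0.06, unadjusted p = 0.240) with glial and endothelial scores as covariates. Hdac4 passed in none of the 68 alternative fits, where the adjusted p for EE against SH ran from 0.0529 without SH RES mouse 7 to 0.429 with glial and endothelial scores as covariates.

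Hdac5 differed little between housings, with 94.7 ± 6.29 CPM (SD, n = 27) in SH and 95.1 ± 7.0 CPM (SD, n = 27) in EE. Its lowest group was SH RES, from 77.7 to 98.8 CPM with a median of 92.7, beside SH controls from 85.5 to 109 CPM with a median of 97.6. That difference was -0.10 (SE 0.05) on the log2 scale with an unadjusted p of 0.0378 and an adjusted p of 0.9999 (edgeR). Without SH RES mouse 5 it was -0.07 (unadjusted p = 0.185). Over the mice Hdac5 rose with the endothelial marker score (r = 0.56, permutation p = 2e-05, adjusted p = 0.00066; rho = 0.55, permutation p = 4e-05, adjusted p = 0.0013), with r = 0.53 without the 2 most distant mice, 0.53 within SH and 0.62 within EE.

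Dnmt1 and Dnmt3a, at chr9:20907209-20959888 on the minus strand and chr12:3806007-3914443 on the plus strand, differed by less than their spread in each comparison. Dnmt1 ranged from 64.9 to 83.3 CPM over the 54 mice, and its group means ran from 72.3 CPM in SH SUS to 75.4 CPM in EE RES mice, a span of 4.29%. Dnmt3a ranged from 57.3 to 78.3 CPM, with group means from 63.5 CPM in EE SUS to 66.6 CPM in SH control mice. Between housings the 95% intervals of the log2 difference were -0.03 to 0.07 for Dnmt1 and -0.10 to 0.03 for Dnmt3a, so a difference of the size of that of Hdac1 lies outside both.

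The TET genes lie on the minus strand at chr10:62804570-62908996 (Tet1), chr3:133463679-133545139 (Tet2) and chr6:83362373-83459084 (Tet3). Tet2 was the TET gene with the largest differences, and these were between defeated and control mice raised in EE. EE control mice ranged from 49.1 to 60.1 CPM with a median of 54.5, EE RES mice from 45.8 to 58.9 with a median of 48.9, and EE SUS mice from 47.2 to 55.2 with a median of 50.5 (n = 9 each). The 3 EE groups overlapped. In mice raised in SH, control, RES and SUS groups had medians of 52.1, 54.4 and 54.6 CPM, so that the medians of defeated mice were not below that of controls there.

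Tet2 was -0.11 (SE 0.05, unadjusted p = 0.0198, adjusted p = 0.600) on the log2 scale in EE RES and -0.11 (SE 0.05, unadjusted p = 0.0169, adjusted p = 0.534) in EE SUS against EE control mice (edgeR), and the 2 comparisons share their controls. The difference between the housings in the effect of defeat, which shares them too, was -0.13 (SE 0.06, unadjusted p = 0.0203, adjusted p = 0.756). None of these passed. Hdac5 had a value of the opposite sign in the same test, 0.12 (SE 0.06, unadjusted p = 0.0368, adjusted p = 0.756), and its unadjusted p was below 0.05 in 52 of 68 alternatives.

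Thalamic markers differed in the same comparisons without passing the adjusted threshold. At an unadjusted p below 0.05, 8 of 8 were higher in EE SUS (median log2 difference 1.19) and 4 of 8 in EE RES mice (0.58) than in EE controls, and 6 of 8 were higher in the test of the difference between housings (0.87). The shares of all tested genes with an unadjusted p below 0.05 in these tests were 7.9%, 7.91% and 6.47%. Summed, they had a median of 137.9 CPM in EE control (116.4 to 261.7), 195.7 CPM in EE RES (100.5 to 699.8) and 325.4 CPM in EE SUS mice (157.3 to 610.8). All 8 granule cell markers had negative log2 differences against EE controls in EE SUS (median -0.13) and EE RES mice (-0.19). With choroid plexus and thalamus scores as covariates, Tet2 was at -0.14 (SE 0.04, unadjusted p = 0.00162) in EE RES and -0.18 (SE 0.05, unadjusted p = 0.000285) in EE SUS mice and at -0.17 (SE 0.05, unadjusted p = 0.00154) for the difference between housings, where Hdac5 was at 0.09 (SE 0.06, unadjusted p = 0.109). With glial and endothelial scores that value of Hdac5 was 0.08 (SE 0.05, unadjusted p = 0.102). With granule, CA1 and CA3 scores, Tet2 was at -0.09 (SE 0.05, unadjusted p = 0.0626, edgeR) in EE RES and -0.11 (SE 0.05, unadjusted p = 0.027) in EE SUS mice. The difference between housings was then -0.13 (unadjusted p = 0.0339) for Tet2 and 0.12 (unadjusted p = 0.0358) for Hdac5. With glial and endothelial scores Tet2 was at -0.12 (unadjusted p = 0.0172) in EE RES and -0.11 (unadjusted p = 0.0254) in EE SUS mice. None of these had an adjusted p below 0.05.

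Tet1 ranged from 19.3 to 26.9 CPM and Tet3 from 20.2 to 33.5 CPM over the mice. Tet3 was the most variable of the 9 genes, with a coefficient of variation of 11.2%, and its group means from 25.3 CPM in EE RES to 27.4 CPM in SH SUS mice lay within 1 SD of each other. The largest log2 difference of Tet3 against controls was 0.09 in SH SUS mice (95% interval -0.05 to 0.24), and that of Tet1 was -0.07 in EE RES mice (95% interval -0.17 to 0.03).

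**Figure D4:**
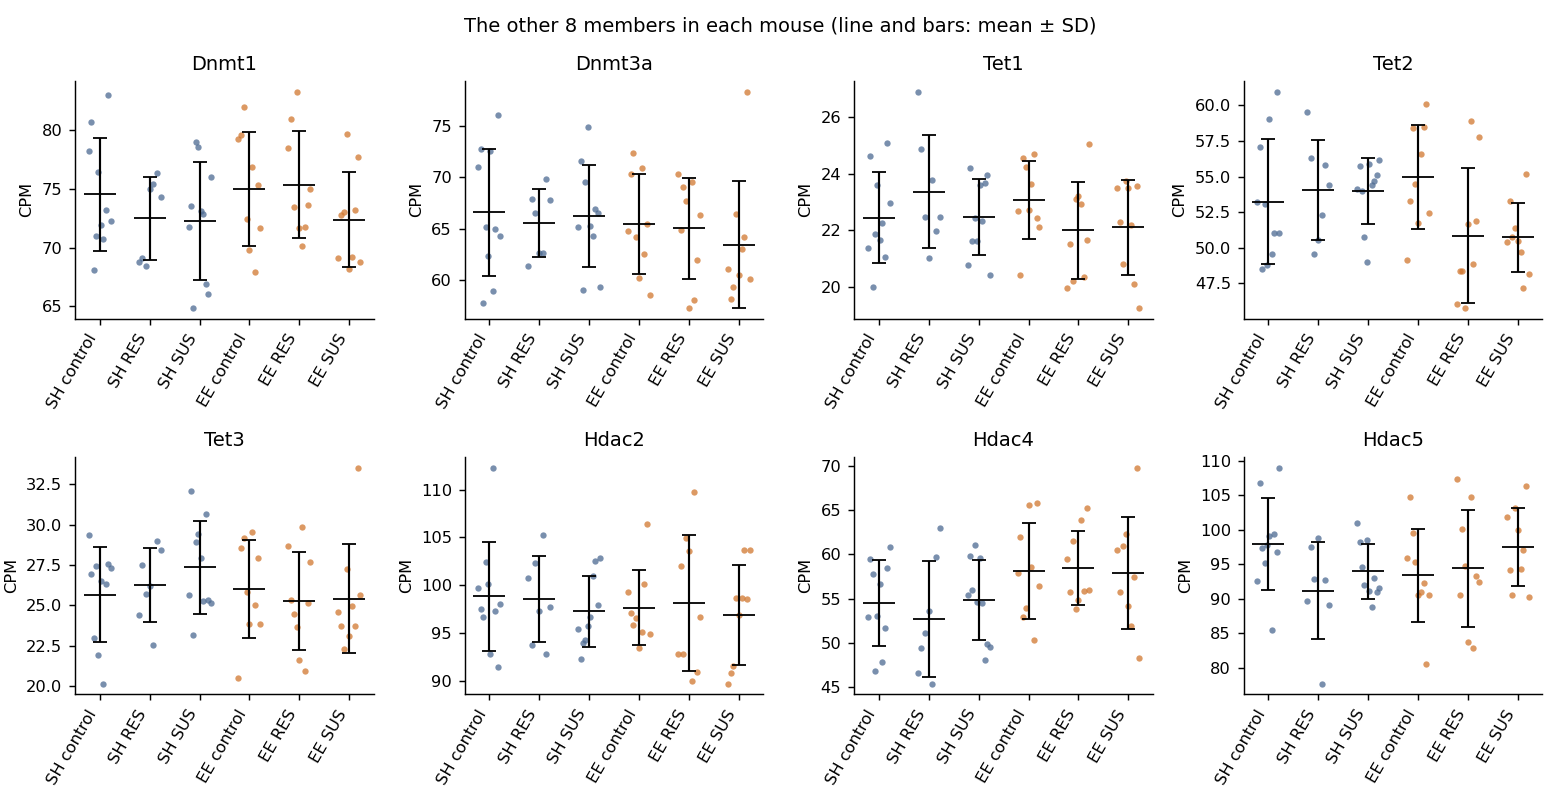
CPM of the other 8 genes for each mouse of the 6 groups, with the mean and SD of each group as a line and bars; each panel has its own axis, which does not start at 0. The groups overlap in every panel, and Hdac4 has its 3 EE means (57.9 to 58.5 CPM) above its 3 SH means (52.7 to 54.8 CPM).

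Taken by comparison, defeat left the 9 genes without a call in either housing. For SH SUS against SH control mice 0 of 9 genes passed, beside 0.0328% of all genes, and 0 of 9 had an unadjusted p below 0.05, beside 2.78%. For SH RES against SH control mice the adjusted count was 0 of 9 beside 0%, and the unadjusted count was 1 of 9 (Hdac5) beside 3.51%. For EE SUS and EE RES against EE control mice the adjusted count was 0 of 9 beside 0% in both, and Tet2 alone had an unadjusted p below 0.05, beside 7.9% and 7.91% of all genes. DESeq2 and limma-voom gave the same adjusted and unadjusted counts for the 9 genes in these 4 comparisons. With both housings pooled, 35 defeated against 19 control mice gave 0 of 9 genes at either threshold, beside 0.0438% and 4.81%, and log2 differences from -0.05 (Tet2) to 0.01 (Tet3).

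No gene of the 9 stood out between the behavioral phenotypes. Between SUS and RES mice the adjusted count was 0 of 9 in SH and 0 of 9 in EE, beside 0% of all genes in both, and the unadjusted count was also 0 of 9 with edgeR, limma-voom and DESeq2, beside 4.88% in SH and 3.52% in EE with edgeR. Log2 differences of the 9 genes ran from -0.07 (Hdac1) to 0.06 (Tet3) in SH and from -0.06 (Dnmt1) to 0.05 (Hdac5) in EE, with SE of up to 0.08 in both. For the difference between housings in the SUS to RES contrast both counts were 0 of 9, beside 0% and 4.84%. For that in the effect of defeat, 0 of 9 passed beside 0%, and 2 of 9 (Tet2 and Hdac5) had an unadjusted p below 0.05 beside 6.47%.

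Between housings within a phenotype, 0 of 9 genes passed for control mice beside 0.00547% of all genes, for RES mice beside 0.273% and for SUS mice beside 0.00547%. Unadjusted, the counts were 1 of 9 (Hdac1) beside 5.02% for control, 2 of 9 (Hdac1 and Hdac4) beside 16% for RES and 1 of 9 (Hdac1) beside 7.36% for SUS mice. The median log2 difference of the 9 genes across all phenotypes was -0.02, beside 0.0043 for all genes.

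**Figure D5:**
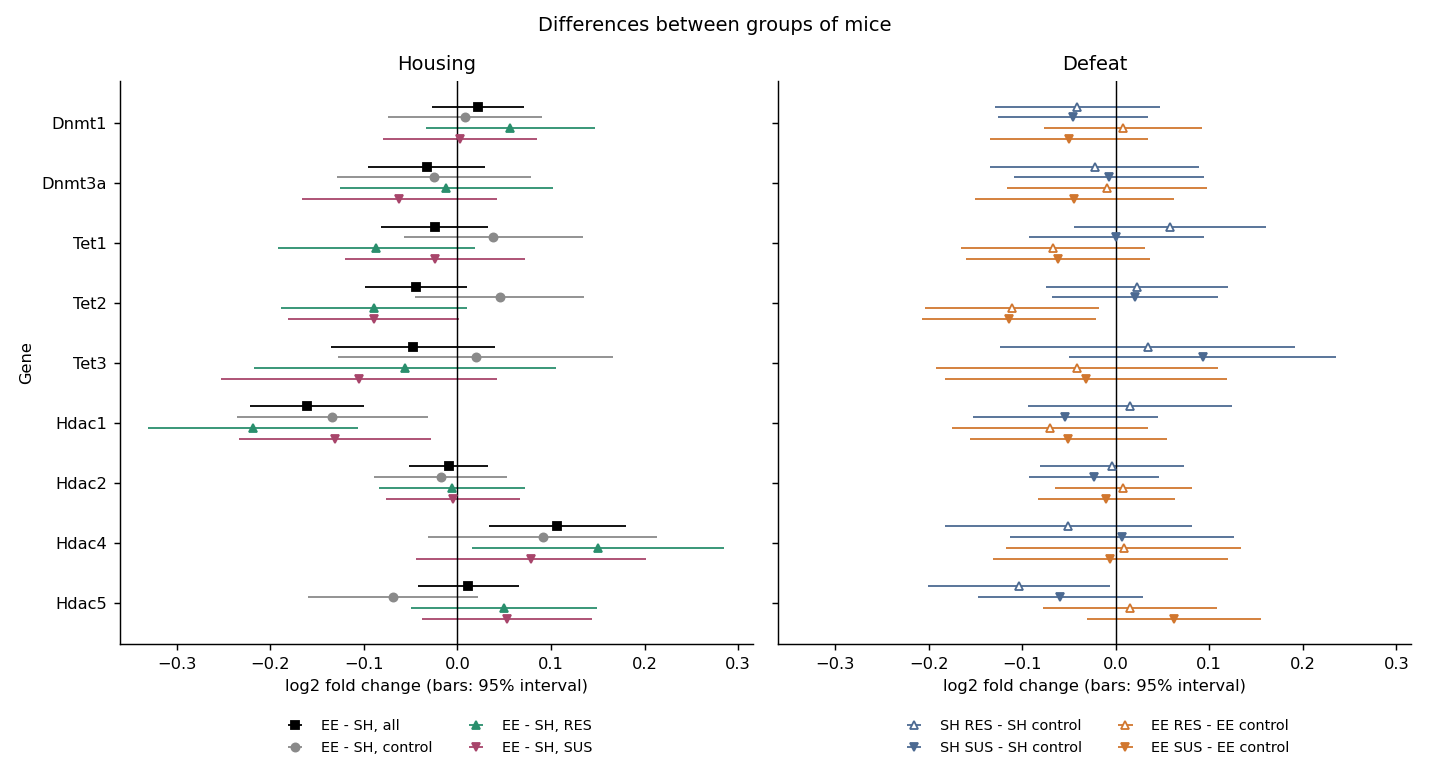
Log2 fold changes of the 9 genes with 95% intervals, for EE against SH mice overall and by phenotype (left) and for RES and SUS against control mice of their housing (right). The 4 Hdac1 intervals on the left lie below 0, from -0.33 to -0.03, and those of Tet2 in EE lie below 0 on the right. Those of Hdac4 for all mice and for RES mice lie above 0 on the left, and that of Hdac5 in SH RES lies below 0 on the right. The intervals are not adjusted for the number of genes.

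Other genes of the same pathways were counted in lists by function. Of 24 subunits of deacetylase corepressor complexes, 2 fell in EE across all phenotypes, and none rose, beside 2.42% of all tested genes called, 281 lower and 161 higher. These were Rcor3, of the CoREST family, with 45.3 ± 2.87 CPM in SH and 42.2 ± 2.79 CPM in EE (SD, n = 27 each, log2 difference -0.11, SE 0.03, adjusted p = 0.0153, edgeR), and Rbbp7, a histone-binding subunit of NuRD and Sin3, with 197 ± 7.43 and 187 ± 8.74 CPM (log2 difference -0.08, SE 0.02, adjusted p = 0.0117). With glial and endothelial scores as covariates neither passed (Rcor3 at -0.07, adjusted p = 0.255, and Rbbp7 at -0.06, adjusted p = 0.177), and with granule, CA1 and CA3 scores Rcor3 did not (-0.08, adjusted p = 0.0909). Both are known from complexes that hold Hdac1 or Hdac2, and Hdac2 did not pass between housings (log2 difference -0.0094). The list as a whole had a median log2 difference of -0.0051 beside 0.0043 for all genes.

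In the other lists no gene passed in any of the 14 comparisons. They held 11 tested of 12 other DNA methylation writers and erasers, 10 methyl-CpG readers, 7 other zinc-dependent deacetylases, 7 sirtuins, 10 histone acetyltransferases and 10 tested of 11 partners and kinases of class IIa deacetylases. The gene with the smallest unadjusted p was taken from each list. These were Tdg, the glycosylase that removes oxidized methylcytosine, at -0.17 (SE 0.05, adjusted p = 0.0881) and Mbd4, a methyl-CpG binding glycosylase, at -0.26 (SE 0.08, adjusted p = 0.0869), both in EE RES against SH RES mice. In the same comparison Kat6b, an acetyltransferase, was at -0.12 (SE 0.05, adjusted p = 0.204) and Mef2c, a transcription factor bound by class IIa deacetylases, at -0.28 (SE 0.09, adjusted p = 0.131). Hdac6, a mainly cytoplasmic deacetylase, was at -0.13 (SE 0.04, adjusted p = 0.331) in EE SUS against SH SUS mice, and Sirt5, a mitochondrial sirtuin, at -0.10 (SE 0.03, adjusted p = 0.828) in defeated against control mice.

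Some of the 9 genes were correlated from mouse to mouse. Of their 36 pairs, 11 were correlated over the 54 mice by both Pearson's r and Spearman's rho after adjustment, 9 of them positively. The weakest of these 11 had an absolute r of 0.32, a size that 16 of the 36 pairs (44.4%) reached, beside 18.6% of all pairs of 14493 protein-coding genes in the same libraries. Of those pairs of all genes that reached it, 51.6% were positive. The cutoff was taken from the 9 genes themselves, and the background holds genes with lower counts, so these shares are a description only. The closest pair was Dnmt3a and Tet3, a writer and an eraser, at r = 0.78 and rho = 0.81 (both permutation p = 1e-05, adjusted p = 0.00024 and 0.00018), with 0.75 without the 2 most distant mice, 0.74 within SH and 0.80 within EE. Tet1 and Tet2 followed at r = 0.58 and rho = 0.56 (permutation p = 2e-05 and 1e-05, adjusted p = 0.00024 and 0.00018), with 0.59 without 2 mice, 0.50 within SH and 0.63 within EE. Dnmt1 and Dnmt3a had r = 0.55 and rho = 0.54 (permutation p = 2e-05 and 4e-05, adjusted p = 0.00024 and 0.00048), with 0.51 without 2 mice, 0.55 within SH and 0.62 within EE.

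The 2 inverse pairs joined Hdac2 to the class IIa genes. Hdac2 and Hdac5 had r = -0.53 and rho = -0.44 (permutation p = 6e-05 and 0.001, adjusted p = 0.00054 and 0.0062), with -0.45 without 2 mice, -0.53 within SH and -0.52 within EE. Hdac2 and Hdac4 had r = -0.49 and rho = -0.51 (permutation p = 0.00026 and 0.00017, adjusted p = 0.0019 and 0.0015), with -0.49 without 2 mice, -0.67 within SH and -0.35 within EE. All values of a mouse come from 1 dissected piece of tissue, so cell makeup and RNA quality are shared by both genes of a pair, and their part in these relations was not tested. Of the 99 relations with marker scores, 12 passed by both measures, and those of Dnmt3a (r = 0.40), Tet3 (r = 0.38) and Hdac2 (r = 0.43) with the granule cell score were among them.

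Among 14492 protein-coding genes, those whose log2 CPM was most like that of Hdac1 over the 54 mice were Npnt (r = 0.85), Arhgap20 (r = 0.83) and Rgs14 (r = 0.82). All 3 were also lower in EE than in SH, by -0.33 (adjusted p = 0.00135), -0.17 (adjusted p = 0.0400) and -0.20 (adjusted p = 0.00222) on the log2 scale (edgeR). As these 3 were picked for their likeness to Hdac1 in the same mice, their direction between housings is a description and no separate evidence. For Dnmt3a the most alike genes were Dock3 (r = 0.83), Hdac7 (r = 0.83) and Nlgn3 (r = 0.82), and for Dnmt1 they were Numa1 (r = 0.71), Cad (r = 0.70) and Edc4 (r = 0.69). Hdac7, another class IIa deacetylase, and Kmt2a and Dot1l, histone methyltransferases, are chromatin genes in their own right.

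Tet3 was most like Kmt2a (r = 0.84), Mef2d (r = 0.83) and Dot1l (r = 0.82), and Tet2 was close to Setd5 (r = 0.79) and Mbd5 (r = 0.76). Tet1 was most like Zbtb37 (r = 0.72), Qser1 (r = 0.68) and Cep192 (r = 0.66). None of these genes passed between housings. For the deacetylases, Hdac2 was most like Serbp1 (r = 0.79), Tmeff1 (r = 0.79) and Usp47 (r = 0.78), Hdac4 most like Cacna1i (r = 0.84), Caskin1 (r = 0.79) and Elavl3 (r = 0.78), and Hdac5 most like Arhgef40 (r = 0.74), Srebf1 (r = 0.72) and Dab2ip (r = 0.72). None of these 9 passed between housings either. These likenesses are descriptions over the same 54 mice.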

How the data were processed

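The authors dropped low-quality reads and aligned the others with STAR to GRCm38 (mm10). Genes were quantified by featureCounts according to the methods, whereas the layout of the deposited files is that of gene counts written by STAR. The deposited values are raw counts of read pairs per gene, without normalization, for 55 libraries, and the submitters' processing notes also name Picard. Versions are not given in the sources used here. Reverse-strand counts were used because the kit was stranded, and forward-strand counts were 3.51 to 4.13% of the read pairs of a library. Rows that name no gene entered neither the library sizes nor any test. They held 13.9 to 19.9% unmapped, 8.70 to 12.1% multimapping, 19.9 to 28.8% unassigned and 0.836 to 1.12% ambiguous pairs. Of the 45318 identifiers, 44585 matched the GENCODE M21 annotation used for names, lengths and sequence.

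Samples were grouped by their labels, which give more mice for most groups than the replicates stated in the methods. Counts of EE control mouse 9 are the sum of its 2 runs, which agreed more (r = 0.9991 over genes) than the first run did with the most alike other EE control mouse (r = 0.998). Counts were normalized by TMM and filtered with filterByExpr, and the 6 groups were fitted together with the quasi-likelihood test of edgeR 4.0.16 in R 4.3.3, without covariates, with Benjamini-Hochberg adjustment over 18283 genes and a threshold of 0.05. SE and 95% intervals follow from the F statistic, and CPM are TMM-scaled. The p-values cover the spread between single mice. Mice of the same housing were raised in shared cages, with larger groups in EE, and the labels name no cage. Cage mates were thus treated as independent, and differences between cages cannot be told apart from those between housings. Correlations used log2 CPM with a prior count of 2, two-sided tests of 100000 permutations and adjustment within 36 pairs and 99 marker relations (Python 3.11.15, NumPy 2.4.6, pandas 2.3.3, SciPy 1.17.1, statsmodels 0.14.6, the package data.table in version 1.17.8, plots with matplotlib 3.10.9). The count model was tested on simulated data.

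The 9 genes, the pathway lists and the marker lists were chosen with earlier results of these data known. Named are the 9 genes, the 3 protein-coding genes most like each of them, genes of the pathway lists with an adjusted p below 0.05 in any comparison or else the one with the smallest p, and the markers that passed between housings. Of the latter, Tdo2, Dsp, Mbp and Flt1 were named after their values were seen. Not every gene that meets these rules is reported here. Alternatives were RLE size factors, no filter, a filter of 1 CPM in 7 mice, unstranded counts, limma-voom (limma 3.58.1) without and with sample quality weights, DESeq2 1.42.0, a block for the replicate number, covariates for choroid plexus and thalamus, the second run left out, and each of the 54 mice left out in turn. Chosen after seeing the data were scores of granule, CA1 and CA3 cells or of glial and endothelial cells as covariates, the sum of Hdac1 and Gm10093, and leaving out the 6 mice whose choroid plexus markers exceeded 100 CPM.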

Additional observations from a re-analysis of the deposited data

Results flagged for a closer look

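In 54 tests of a gene in a group, 3 values from 2 mice lay far from the others of their group, about as many as chance gives at 1 in 20. EE SUS mouse 8 had the highest Dnmt3a of its group at 78.3 CPM, with the next mouse at 66.5 CPM, and also the highest Tet3 at 33.5 CPM, with the next at 27.3 CPM. Dnmt3a and Tet3 are the pair of genes most closely correlated over all mice, so these 2 values are not independent of each other. SH control mouse 7 had the highest Hdac2 of its group at 112.3 CPM, with the next at 102.4 CPM.

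For 2 genes the effect of defeat differed between housings at an unadjusted p below 0.05 in edgeR, without passing the adjusted threshold. The log2 difference of Tet2 between defeated and control mice was lower in EE than in SH by a value of -0.13, and that of Hdac5 was higher in EE by 0.12.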

How the results depend on the processing

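Under the 68 alternatives, 736 of 748 log2 differences of the named comparisons kept their direction and their side of the threshold, 11 passed where the reported value did not, 1 no longer passed, and none changed sign. Most of the named comparisons were not called to begin with, and 54 of the alternatives left out only 1 mouse. The total therefore mostly counts values that stayed uncalled and says little about robustness. In the counts of called genes, of the 9 genes only Hdac1 was called under any alternative. For EE against SH mice the count of 1 became 0 only with glial and endothelial covariates, where Hdac1 was at -0.12 (adjusted p = 0.0548), and over the 54 fits without 1 mouse the value ran from -0.17 to -0.15. For EE RES against SH RES mice the count of 0 became 1 with DESeq2 (-0.22), with the replicate block (-0.22) and with quality weights (-0.22), and without 1 mouse it ran from 0 to 1 with values from -0.25 to -0.19; it was 1 in 8 of these 54 fits. With neuronal covariates that difference was -0.12 (adjusted p = 0.390) and with glial and endothelial covariates -0.14 (adjusted p = 0.388). For any difference among the 6 groups the count of 1 became 0 with no filter, limma-voom, the replicate block, either set of neuronal or glial covariates and the sum of Hdac1 and Gm10093, and ran from 0 to 1 without 1 mouse. The causes were not tested. Same-numbered mice of different groups had a mean correlation of deviations of 0.03, from -0.26 to 0.44, beside -0.0035 for other pairs of mice. Of 54 mice, 9 were most like a mouse of their own number. Whether the shared replicate numbers pair the mice was not settled by these values. With the replicate block, edgeR called 228 genes in place of 50 for EE RES against SH RES mice. For EE against SH mice it called 581 in place of 442, and the EE difference of Hdac1 was -0.16 (adjusted p = 0.00335). Tet1, Tet3 and Hdac1, with 361 to 1078 counted pairs per mouse, had the smallest counts of the 9 genes and were the most exposed to counting error.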

Other observations

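Beyond the granule cell, oligodendrocyte and endothelial markers, the marker lists differed between housings without a call. Of all tested genes, 2.42% passed for EE against SH mice and 17.6% had an unadjusted p below 0.05. For EE against SH mice edgeR called 0 of 8 markers of immature granule neurons and proliferation (4 with an unadjusted p below 0.05, median log2 difference 0.19), 0 of 5 of CA1 cells (0.09), 0 of 6 of CA3 cells (0.06), 0 of 8 tested of choroid plexus (0.44), 0 of 8 of thalamus (0.17), 0 of 6 of astrocytes (-0.02) and 0 of 8 of microglia (0.07). The red blood cell list had 0 of 5 genes called between housings. In defeated against control mice 5 of 5 were called higher, beside 0.0438% of all genes. The median log2 difference of the list there was 1.08, while none of the 9 enzymes passed in that comparison. The red blood cell score and Hdac1 had r = -0.09 over the 54 mice (permutation p = 0.5).

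Some relations between the enzymes and marker scores over the 54 mice also passed adjustment over 99 relations by both r and rho, at smaller sizes. Hdac1 had r = -0.47 and rho = -0.38 with the CA3 score (permutation p = 0.00029 and 0.0046, adjusted p = 0.0072 and 0.048), and r was -0.32 without the 2 most distant mice. With the choroid plexus score it had r = -0.42 and rho = -0.40 (permutation p = 0.0014 and 0.0031, adjusted p = 0.023 and 0.038), and r was -0.45 without 2 mice. Tet3 had r = -0.34 and rho = -0.38 with the microglia score (permutation p = 0.01 and 0.005, adjusted p = 0.049 and 0.048), and r was -0.36 without 2 mice, -0.24 within SH and -0.37 within EE. With the oligodendrocyte score, Tet3 had r = -0.35 and rho = -0.40 (permutation p = 0.0099 and 0.003, adjusted p = 0.049 and 0.038). Dnmt3a had r = -0.34 and rho = -0.38 with that score (permutation p = 0.011 and 0.0058, adjusted p = 0.049 and 0.048). Hdac2 had r = -0.34 and rho = -0.42 with the choroid plexus score (permutation p = 0.011 and 0.002, adjusted p = 0.049 and 0.033). The markers share their library and its cell makeup with the enzymes, whose part in these relations was not tested.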
